A study of Homo sapiens with 24 samples.

Results

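The 35 genes described here encode chemokines, interleukin-1 family ligands and receptors, colony-stimulating factors, subunits and inhibitors of NF-κB and products that NF-κB is known to switch on. They were listed by gene symbol with no cut on measured values, by someone to whom earlier results of these data were known, and all 35 were found. Of them, 32 passed the filter on low values (10 or more estimated counts in 3 or more libraries) among 17453 genes tested, and IL1RN, TNF and CSF3 did not.

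NF-κB is a family of dimeric transcription factors, built from RELA, RELB, REL and the proteins made from NFKB1 and NFKB2, which inhibitors such as IκBα (NFKBIA) hold in the cytoplasm until a receptor signal has the inhibitor degraded. Interleukin-1 is a classical trigger: it binds IL1R1, recruits the accessory protein IL1RAP, and induces chemokines, colony-stimulating factors and the pathway's own inhibitors. In squamous lung carcinoma cells these products are known as signals that attract neutrophils, monocytes and T cells.

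SK-MES1 is an established human cell line derived from a squamous cell lung carcinoma. The cells were kept without serum for 3 h, and then either left untreated or given 2 ng/ml TGFβ1, a cytokine that acts through SMAD transcription factors. RNA was sequenced at 0, 8, 24 and 48 h from 3 replicate cultures per arm and time, which makes 8 groups and 24 libraries of 46613589 to 77964234 estimated counts. All groups come from 1 cell line and share the serum withdrawal, and no untreated group was kept in serum.

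Levels are given in TPM (a level scaled by transcript length and to the same total in each library), and differences between groups as log2 differences with their standard errors, from limma voom fits with Benjamini-Hochberg adjusted p-values over all genes tested. A gene is said to have risen or fallen where its adjusted p was below 0.01. In bulk RNA, a lower level in each cell and a smaller share of cells that make the transcript cannot be told apart. Each library carries 1 of 4 codes from the submitters, shared by the 0 and 8 h libraries of an arm or by its 24 and 48 h libraries, and the sources used here do not say what they mark. A difference between the arms at 1 time and a difference between codes therefore cannot be told apart, whereas the changes from 0 to 8 h and from 24 to 48 h, and the difference of these changes between the arms, lie within codes. The second replicates of both arms at 0 and at 24 h stood apart from the other replicates of their groups, so counts at these times are also given without them. Untreated 8 h replicate 1 also stood apart from replicates 2 and 3 of its group. With each library left out in turn, the count of members called at 8 h ranged from 8 to 15. KRT8, KRT18 and KRT19, keratins of simple epithelia, stood at 242 to 989 TPM, while KRT5, KRT14 and KRT6A, keratins of squamous epithelia, stayed at or below 0.102 TPM in the 24 libraries, the 3 of 12 squamous and epithelial markers below 1 TPM throughout. Of the other squamous markers KRT17 ranged from 0.290 to 71.4, TP63 from 7.69 to 37.5, SOX2 from 0.372 to 8.17 and DSP from 4.06 to 10.6 TPM. CD3E and MS4A1, which mark T and B cells, were at 0 throughout, and 6 of the 10 leukocyte markers stayed below 1 TPM in each library. Of the other leukocyte markers CD68 ranged from 7.64 to 40.2, PTPRC from 1.26 to 2.10, CSF1R from 0.828 to 4.54 and CD14 from 0 to 2.13 TPM. Of 4 endothelial markers 3 stayed below 1 TPM, and PECAM1 ranged from 0.582 to 4.14 TPM. The summed level of 6 fibroblast markers was 203 to 217 TPM in untreated cells and 2105 to 2401 TPM in the TGFβ arm at 48 h, mostly from COL1A1. Over the 24 libraries COL1A1 ranged from 152 to 2359, LUM from 3.03 to 24.1 and PDGFRB from 1.90 to 21.5 TPM. DCN ranged from 0.332 to 13.4 and PDGFRA from 3.17 to 11.3 TPM, and COL1A2 stayed at or below 0.221 TPM. The part of these markers in the results was not tested.

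CXCL1, CXCL2, CXCL3, CXCL5, CXCL6 and CXCL8 belong to a cluster on chromosome 4, and the sequences before their starts show how alike some of them are. CXCL1, CXCL2, CXCL3, CXCL5 and CXCL6 are shown because each holds the same run of 11 bases, NFKBIA and TNFAIP3 because they encode inhibitors that NF-κB is known to induce, and CXCL8 because it rose late, as CXCL1 did, and the consensus letters are not in its window. The stretches run from 100 to 41 bases before the gene start, 5′ to 3′, as given by RefSeq for GRCh38.p14. Capitals mark the bases covered by a match to the 10-base NF-κB consensus on either strand.
CXCL1 (chr4:73869293-73869352, plus strand): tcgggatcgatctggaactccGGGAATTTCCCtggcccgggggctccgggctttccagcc
CXCL2 (chr4:74099236-74099295, minus strand): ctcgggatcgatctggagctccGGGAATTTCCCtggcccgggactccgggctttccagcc
CXCL3 (chr4:74038730-74038789, minus strand): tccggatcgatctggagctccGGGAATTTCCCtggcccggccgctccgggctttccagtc
CXCL5 (chr4:73998718-73998777, minus strand): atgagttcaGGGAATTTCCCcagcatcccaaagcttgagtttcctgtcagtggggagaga
CXCL6 (chr4:73836578-73836637, plus strand): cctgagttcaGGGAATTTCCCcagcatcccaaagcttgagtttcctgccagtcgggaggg
NFKBIA (chr14:35404790-35404849, minus strand): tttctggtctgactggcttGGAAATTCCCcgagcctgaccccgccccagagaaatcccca
TNFAIP3 (chr6:137867159-137867218, plus strand): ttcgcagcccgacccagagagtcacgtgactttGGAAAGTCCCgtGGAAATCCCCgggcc
CXCL8 (chr4:73740469-73740528, plus strand): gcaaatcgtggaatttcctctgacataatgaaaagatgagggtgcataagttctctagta

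In the first 5 genes 2 matches overlap, 1 on each strand and offset by 1 base, so that 11 bases are covered. CXCL10 and BIRC3 hold 2 matches each further upstream, shown here because CXCL10 and BIRC3 were among the members with large differences.
CXCL10 (chr4:76023598-76023677, minus strand): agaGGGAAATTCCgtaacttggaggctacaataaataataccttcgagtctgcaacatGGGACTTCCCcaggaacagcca
BIRC3 (chr11:102317279-102317358, plus strand): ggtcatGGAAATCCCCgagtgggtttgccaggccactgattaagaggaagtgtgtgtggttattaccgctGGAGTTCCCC

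The windows of CSF2, PTGS2 and IL1B held no match, although their differences at 48 h were larger than that of BIRC3. Single matches lay in the windows of NFKB1, NFKBIZ, CCL20 and LTB. Of the 35 members, 29 had a window in the table, of 300 bases from 250 before to 50 after the start, and 13 of these (44.8%) held the consensus, against 5.91% of all 35116 windows. A looser pattern, 3 G and 2 C with any 5 bases between them, was present in 82.8% of the members' windows and 58.7% of all. A match is a description of letters and not a measured binding site, and the lack of a match does not show that a site is absent. The CXCL8 stretch holds tggaatttcc, which differs from the matched gggaatttcc of CXCL1 in the first letter only.

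Over 8, 24 and 48 h together, 28 of the 32 tested members differed between the arms in the moderated F-test, against 42.5% of all genes tested, and on average over the 3 times 24 of them were lower and 4 higher in the TGFβ arm. At 0 h no member differed (0% of all genes called higher and 0% lower), with 2 members, IL1R1 and IL33, at an unadjusted p below 0.05, and edgeR and DESeq2 also called 0. At 8 h, 3 members were higher and 9 lower (9.12% and 7.26% of all genes), at 24 h 2 were higher and 15 lower (15.4% and 13.8%), and at 48 h 3 were higher and 23 lower (16.1% and 16.4%). At these times the members' median log2 difference was -0.23, -0.51 and -0.995, beside -0.016, -0.015 and -0.013 over all genes tested. At 48 h 15 of the 23 lower members were at least 2-fold lower, and none of the 3 higher members was 2-fold higher. Of all 17453 genes tested, 749 were called at least 2-fold lower and 715 at least 2-fold higher at 48 h.

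The split between higher and lower depended on the scaling. With library sizes set by 4 reference genes, which lifted the median of all genes by 0.351 at 24 h and 0.35 at 48 h, the F-test called 7 higher and 18 lower, and the counts were 5 and 5 at 8 h, 6 and 9 at 24 h and 5 and 18 at 48 h. The shares of all genes called with this scaling are not at hand, so its counts are not read as a result about the members. The 48 h calls of IL1A, IL1R1, TNFAIP3, NFKB2 and ICAM1 were lost with this scaling, with adjusted p-values from 0.0128 to 0.467, and so were the 24 h calls of IL1A, IL1R1, CXCL3, TNFAIP2, PTGS2 and TRAF1, from 0.0206 to 0.248 in limma voom. The 8 h calls of IL1A, IL1R1, CSF2 and IL36G were lost as well, with adjusted p-values from 0.0111 to 0.0726 in limma voom. At 8 h library totals gave 2 higher and 14 lower, and log2(TPM + 1) gave 1 and 10. Without the second replicates of 0 and 24 h the counts were 2 higher and 14 lower at 24 h.

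**Figure D1:**
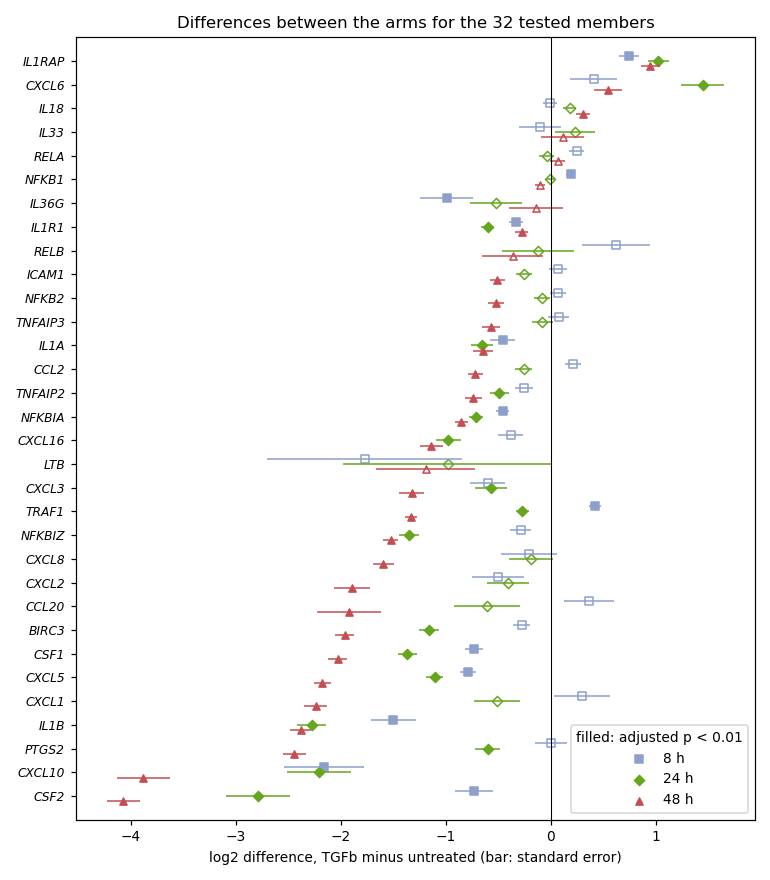
Log2 difference between the arms (TGFβ minus untreated) with its standard error for each of the 32 tested members at 8, 24 and 48 h, ordered by the difference at 48 h. Filled symbols mark an adjusted p below 0.01. Most members lie left of zero at 48 h, with CSF2 at -4.07 and CXCL10 at -3.88 farthest left, and IL1RAP, CXCL6 and IL18 are the 3 filled symbols on the right. LTB was near 0 TPM in several groups, so its differences are not interpreted.

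The neutrophil-attracting chemokines CXCL1 and CXCL8, ligands of CXCR2, were scarce until 24 h and then rose in both arms, far less with TGFβ1. Untreated cells held CXCL1 at 1.75, 2.49 and 2.48 TPM at 0 h, 1.27, 1.86 and 1.33 at 8 h, 3.09, 3.35 and 4.20 at 24 h and 58.4, 73.4 and 63.1 at 48 h. CXCL1 in the TGFβ arm was at 2.16, 2.36 and 1.51 TPM at 0 h, 2.01, 1.64 and 1.83 at 8 h, 2.58, 2.88 and 1.90 at 24 h and 16.5, 12.8 and 12.5 at 48 h. The arms overlapped at 0 and 8 h and separated at 24 and 48 h, where each TGFβ library lay below each untreated one. The log2 difference of CXCL1 at 48 h was -2.24 ± 0.11 (adjusted p = 4.16e-13), 4.72-fold lower, while the 24 h difference of -0.51 ± 0.22 did not pass (adjusted p = 0.0712).

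Untreated cells held CXCL8 at 1.34, 1.21 and 1.40 TPM at 0 h, 0.836, 1.02 and 1.22 at 8 h, 1.41, 1.95 and 2.31 at 24 h and 34.0, 43.9 and 35.3 at 48 h. CXCL8 in the TGFβ arm was at 1.497, 1.75 and 1.44 TPM at 0 h, 0.873, 0.721 and 0.945 at 8 h, 1.51, 2.14 and 1.39 at 24 h and 13.8, 11.5 and 11.6 at 48 h. Only at 48 h did the TGFβ libraries of CXCL8 all lie below the untreated ones, and at 0 h they all lay slightly above. At 48 h the log2 difference of CXCL8 was -1.59 ± 0.10 (adjusted p = 2.52e-11), 3.02-fold lower. At 8 and 24 h it was -0.20 (95% interval -0.76 to 0.36) and -0.18 (-0.62 to 0.25).

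CXCL5, a further ligand of CXCR2, was the member with the smallest p in the F-test and was abundant from the start. Untreated cells held CXCL5 at 55.6, 67.8 and 57.3 TPM at 0 h, 71.8, 70.0 and 71.9 at 8 h, 47.0, 57.4 and 50.7 at 24 h and 92.9, 109 and 97.0 at 48 h. CXCL5 in the TGFβ arm was at 53.5, 67.2 and 59.5 TPM at 0 h, 40.4, 38.4 and 40.5 at 8 h, 21.8, 26.4 and 22.4 at 24 h and 22.3, 20.7 and 22.04 at 48 h. The arms overlapped at 0 h and were apart at each later time, with the untreated libraries highest at 48 h and the TGFβ libraries at about the same level at 24 and 48 h. For CXCL5 the log2 differences were -0.79 ± 0.08 (adjusted p = 1.26e-07), -1.11 ± 0.08 (adjusted p = 7.25e-10) and -2.17 ± 0.08 (adjusted p = 7.11e-15) at 8, 24 and 48 h, the last 4.51-fold lower.

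CXCL2 and CXCL3, close relatives of CXCL1, dipped at 8 h in both arms. Untreated cells held CXCL3 at 2.12, 2.53 and 2.62 TPM at 0 h, 1.203, 1.16 and 1.08 at 8 h, 1.34, 1.62 and 1.93 at 24 h and 4.21, 5.04 and 4.69 at 48 h. CXCL3 in the TGFβ arm was at 2.22, 2.19 and 1.96 TPM at 0 h, 0.702, 0.666 and 0.743 at 8 h, 1.02, 1.28 and 0.813 at 24 h and 2.12, 1.74 and 1.61 at 48 h. The TGFβ libraries of CXCL3 lay below the untreated ones at 8, 24 and 48 h and overlapped at 0 h. The log2 difference of CXCL3 was -1.32 ± 0.12 (adjusted p = 8.11e-09) at 48 h and -0.57 ± 0.15 (adjusted p = 0.00487) at 24 h. The 24 h call was lost in DESeq2 (adjusted p = 0.0200) and with length-scaled counts (0.0145). It was also lost with 4 of 24 libraries left out in turn (untreated 24 h replicates 2 and 3 and TGFβ 24 h replicates 1 and 3), with the replicate number as a block within each time (adjusted p = 0.0205) and without the second replicates (adjusted p = 0.0141), and leaving out TGFβ 24 h replicate 3 gave -0.46 (adjusted p = 0.0421). CXCL2 ranged from 0.625 to 9.004 TPM, with 8.18 ± 0.715 TPM (SD, n = 3) in untreated cells and 2.12 ± 0.402 in the TGFβ arm at 48 h, a log2 difference of -1.90 ± 0.17 (adjusted p = 9.15e-09). Of the 31-base words in their transcripts, 23.5% in CXCL2, 13.7% in CXCL1 and 9.23% in CXCL3 also occur in other genes, mostly each other, so the split of reads among these 3 is less certain than for CXCL8, which shares none.

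CXCL6, a close relative of CXCL5, was higher in the TGFβ arm. CXCL6 ranged from 0.572 to 4.30 TPM, and its mean at 24 h was 0.797 ± 0.295 TPM (SD, n = 3) in untreated cells and 1.90 ± 0.272 in the TGFβ arm. Its log2 difference was 1.45 ± 0.21 (adjusted p = 7.88e-06) at 24 h, 2.73-fold higher, and 0.54 ± 0.14 (adjusted p = 0.00248) at 48 h. The 48 h call was lost with 3 of 24 libraries left out in turn, untreated 48 h replicates 1 and 3 and TGFβ 48 h replicate 1 (highest adjusted p = 0.0256, with a difference of 0.44), and in edgeR (adjusted p = 0.0177) and DESeq2 (adjusted p = 0.0147). CXCL5 and CXCL6, which hold the same 11 capital letters before their starts, had differences of opposite sign at 24 and 48 h.

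CXCL10, a T cell attractant also known as an interferon-induced gene, showed the largest fold among the chemokines. Untreated cells held CXCL10 at 1.94, 1.82 and 2.21 TPM at 0 h, 0.815, 0.992 and 1.41 at 8 h, 1.64, 2.80 and 2.04 at 24 h and 10.1, 12.8 and 10.2 at 48 h. CXCL10 in the TGFβ arm was at 1.86, 1.51 and 1.62 TPM at 0 h, 0.228, 0.113 and 0.336 at 8 h, 0.509, 0.436 and 0.360 at 24 h and 0.703, 0.678 and 0.758 at 48 h. At 8, 24 and 48 h each TGFβ library of CXCL10 lay below each untreated one, and the arms overlapped at 0 h. The log2 differences of CXCL10 were -2.16 ± 0.38 (adjusted p = 1.92e-04), -2.21 ± 0.31 (adjusted p = 5.54e-06) and -3.88 ± 0.25 (adjusted p = 4.32e-11) at 8, 24 and 48 h, the last 14.7-fold lower. The 8 h value rests on 4 to 17 estimated counts per TGFβ library.

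Untreated cells held CXCL16 at 3.98, 4.52 and 4.22 TPM at 0 h, 4.50, 5.72 and 5.86 at 8 h, 7.89, 7.37 and 8.84 at 24 h and 12.6, 11.7 and 10.6 at 48 h. CXCL16 in the TGFβ arm was at 3.79, 3.09 and 3.87 TPM at 0 h, 4.16, 3.79 and 5.03 at 8 h, 4.23, 3.83 and 4.71 at 24 h and 5.98, 6.89 and 5.12 at 48 h. CXCL16, a membrane-bound ligand of CXCR6, had a higher untreated mean at each successive time, and the TGFβ libraries lay below at 0, 24 and 48 h and overlapped at 8 h. The log2 differences of CXCL16 were -0.97 ± 0.12 (adjusted p = 7.77e-07) at 24 h and -1.14 ± 0.11 (adjusted p = 2.34e-08) at 48 h, and that of -0.14 ± 0.13 at 0 h did not pass.

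CCL2, which attracts monocytes, was the most abundant chemokine. In untreated cells CCL2 stood at 74.1 ± 5.85 TPM (SD, n = 3) at 0 h and 338 ± 21.1 at 48 h, and in the TGFβ arm at 68.5 ± 2.49 and 201 ± 8.98. The change from 0 to 48 h crosses codes and was not tested. The log2 difference of CCL2 between the arms at 48 h was -0.72 ± 0.07 (adjusted p = 6.70e-08). At 24 h it was -0.26 ± 0.08 (adjusted p = 0.0121) and passed with the replicate number as a block within each time (adjusted p = 0.00356). CCL20, a ligand of CCR6, ranged from 0.231 to 1.47 TPM, and its log2 difference at 48 h was -1.92 ± 0.30 (adjusted p = 2.33e-05) on 5 to 9 estimated counts per TGFβ library.

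**Figure D2:**
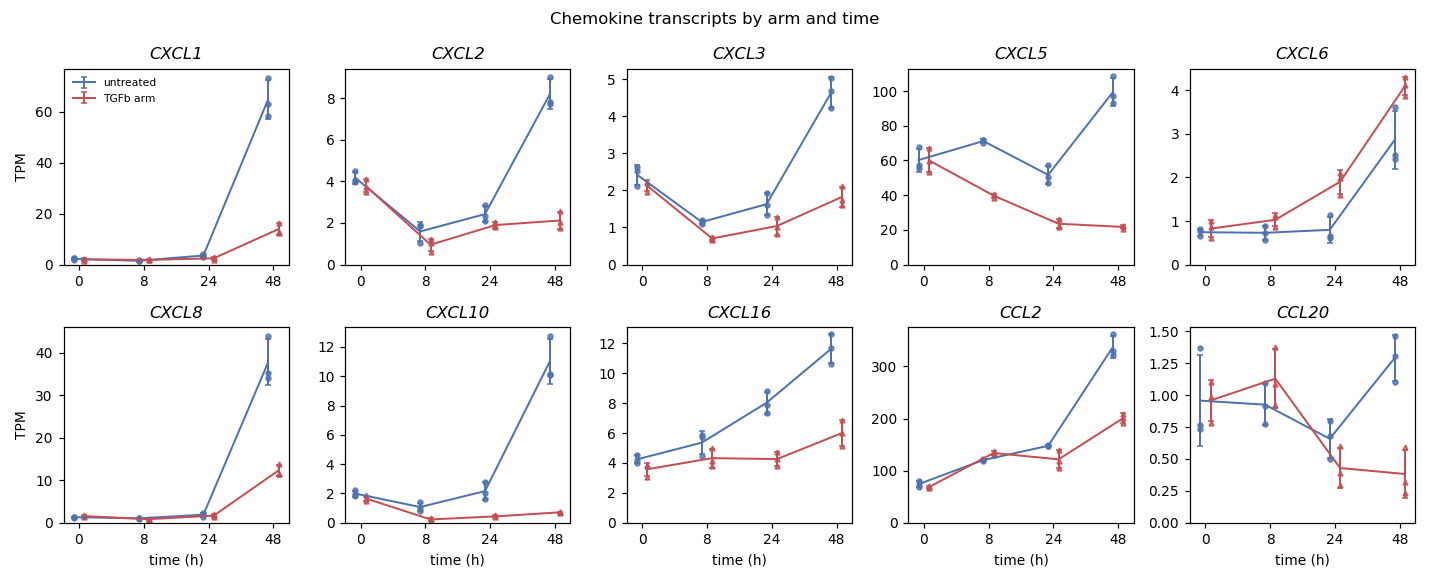
TPM of the 10 chemokine members at 0, 8, 24 and 48 h in untreated cells (circles) and in the TGFβ arm (triangles). Times are evenly spaced on the axis, each point is 1 library, the lines join the means and the bars show the SD (n = 3). In untreated cells CXCL1 and CXCL8 lie near the axis until 24 h and climb at 48 h, and CXCL6 is the one panel in which the TGFβ arm is above at 24 and 48 h.

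Among the interleukin-1 ligands, IL1B and IL1A were lower in the TGFβ arm at each of the 3 later times. Untreated cells held IL1B at 1.88, 1.94 and 1.90 TPM at 0 h, 0.963, 1.23 and 1.23 at 8 h, 5.42, 5.97 and 5.73 at 24 h and 16.6, 16.7 and 16.6 at 48 h. IL1B in the TGFβ arm was at 1.64, 2.32 and 2.002 TPM at 0 h, 0.313, 0.447 and 0.380 at 8 h, 1.36, 1.03 and 1.03 at 24 h and 3.85, 3.18 and 2.58 at 48 h. The arms overlapped at 0 h, and from 8 h on no TGFβ library of IL1B reached the lowest untreated one. Log2 differences of IL1B were -1.50 ± 0.21 (adjusted p = 1.52e-05), -2.28 ± 0.14 (adjusted p = 1.70e-11) and -2.38 ± 0.10 (adjusted p = 2.46e-14) at 8, 24 and 48 h, the last 5.21-fold lower.

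Untreated cells held IL1A at 14.1, 17.5 and 16.1 TPM at 0 h, 5.25, 5.58 and 5.64 at 8 h, 9.30, 10.5 and 9.31 at 24 h and 15.5, 16.9 and 16.6 at 48 h. IL1A in the TGFβ arm was at 13.8, 18.3 and 14.3 TPM at 0 h, 3.59, 3.93 and 4.01 at 8 h, 5.27, 6.99 and 5.99 at 24 h and 10.8, 9.28 and 10.9 at 48 h. IL1A, the form of interleukin-1 that also acts from inside or on the surface of the cell, fell from 0 to 8 h and rose from 24 to 48 h in both arms, and the arms were apart at 8, 24 and 48 h. The log2 differences of IL1A were smaller than those of IL1B, -0.45 ± 0.12 (adjusted p = 0.00728), -0.65 ± 0.11 (adjusted p = 3.78e-05) and -0.64 ± 0.10 (adjusted p = 1.06e-05). The 8 h call of IL1A was lost with 7 of 24 libraries left out in turn (untreated 0 h replicate 3 and each 8 h library), with the highest adjusted p of 0.0381 without TGFβ 8 h replicate 1 (-0.41). This call was also lost in limma voom with length-scaled counts (-0.45, adjusted p = 0.0148) and with the 4 reference genes (-0.36, adjusted p = 0.0695).

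IL18, a ligand that caspase-1 activates, ranged from 17.4 to 32.3 TPM and was higher in the TGFβ arm at 48 h, with a log2 difference of 0.31 ± 0.07 (adjusted p = 7.79e-04), a call lost with library totals (adjusted p = 0.0110). IL36G ranged from 0.207 to 1.10 TPM, and its log2 difference of -0.99 ± 0.25 (adjusted p = 0.00573) at 8 h, on 7 to 10 estimated counts per TGFβ library, was lost with 6 of 24 libraries left out in turn, each 8 h library of both arms (highest adjusted p = 0.0293, without TGFβ 8 h replicate 3). It was also lost in edgeR (adjusted p = 0.0140), DESeq2 (0.0538), with length-scaled counts (0.0299), the 4 reference genes (0.0118) and the block within each time (0.0186). IL33, an alarmin stored in the nucleus, ranged from 0.335 to 1.19 TPM with a log2 difference of 0.12 at 48 h (95% interval -0.31 to 0.54). IL1RN, the natural antagonist of IL1R1, stayed at 0 to 0.174 TPM and was not tested.

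The receptor subunits differed in opposite directions, IL1RAP higher and IL1R1 lower in the TGFβ arm, although IL1R1 was at 0.07 at 48 h when the 4 reference genes set the scale. Untreated cells held IL1RAP at 7.77, 7.57 and 6.602 TPM at 0 h, 5.31, 5.40 and 5.59 at 8 h, 5.01, 4.93 and 4.92 at 24 h and 6.90, 6.31 and 7.31 at 48 h. IL1RAP in the TGFβ arm was at 5.15, 8.46 and 5.88 TPM at 0 h, 5.53, 6.80 and 7.18 at 8 h, 7.84, 8.36 and 7.92 at 24 h and 9.50, 9.64 and 10.4 at 48 h. IL1RAP overlapped between the arms at 0 and 8 h, and at 24 and 48 h each TGFβ library lay above each untreated one. Its log2 differences were 0.75 ± 0.10 (adjusted p = 3.76e-06), 1.03 ± 0.10 (adjusted p = 2.38e-08) and 0.95 ± 0.09 (adjusted p = 2.47e-08) at 8, 24 and 48 h, the 24 h value 2.04-fold higher. The 8 h value of IL1RAP was 0.32 and did not pass with counts scaled for transcript length (adjusted p = 0.0699). At 8 h the transcript IL1RAP-214, which has no annotated coding sequence, held 35.3% of the gene's TPM in untreated cells and 19.6% in the TGFβ arm.

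IL1R1, the signalling receptor, ranged from 2.61 to 8.58 TPM and was lower in the TGFβ arm, with log2 differences of -0.33 ± 0.07 (adjusted p = 0.00108), -0.60 ± 0.07 (adjusted p = 1.83e-07) and -0.28 ± 0.06 (adjusted p = 7.57e-04). With length-scaled counts the 48 h call was lost (adjusted p = 0.0103).

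The colony-stimulating factors CSF1 and CSF2, growth factors of macrophages and of granulocytes and macrophages, were lower in the TGFβ arm at each of the 3 later times. Untreated cells held CSF1 at 112, 104 and 118 TPM at 0 h, 198, 202 and 201 at 8 h, 226, 208 and 244 at 24 h and 434, 427 and 415 at 48 h. CSF1 in the TGFβ arm was at 105, 98.8 and 114 TPM at 0 h, 119.6, 113 and 116 at 8 h, 99.9, 73.7 and 84.4 at 24 h and 107, 102 and 97.1 at 48 h. The arms overlapped at 0 h and were fully apart at 8, 24 and 48 h. The untreated mean was higher at each successive time, while the TGFβ libraries stayed within 73.7 to 120 TPM. For CSF1 the log2 differences came to -0.73 ± 0.09 (adjusted p = 1.81e-06), -1.37 ± 0.09 (adjusted p = 7.47e-11) and -2.03 ± 0.09 (adjusted p = 6.00e-14), the last 4.08-fold lower, and by TPM CSF1 was the most abundant member in untreated cells at 48 h.

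Untreated cells held CSF2 at 2.91, 2.31 and 2.69 TPM at 0 h, 1.92, 1.995 and 1.79 at 8 h, 1.09, 1.25 and 1.68 at 24 h and 19.98, 22.4 and 20.1 at 48 h. CSF2 in the TGFβ arm was at 2.01, 2.10 and 2.88 TPM at 0 h, 1.08, 1.21 and 1.004 at 8 h, 0.176, 0.166 and 0.158 at 24 h and 1.21, 1.17 and 1.19 at 48 h. Each TGFβ library of CSF2 lay below each untreated one at 8, 24 and 48 h, and the arms overlapped at 0 h. The log2 differences of CSF2 were -0.73 ± 0.18 (adjusted p = 0.00448), -2.79 ± 0.31 (adjusted p = 2.11e-07) and -4.07 ± 0.16 (adjusted p = 9.59e-15), the last 16.8-fold lower and the largest among the tested members. The 24 h value rests on 3 to 4 estimated counts per TGFβ library, and the 8 h call was lost with 4 of 24 libraries left out in turn, untreated 8 h replicates 1 and 2 and TGFβ 8 h replicates 1 and 3 (highest adjusted p = 0.0375, without TGFβ 8 h replicate 3, -0.65). CSF3, the granulocyte factor, had at most 2 estimated counts in a library and was not tested.

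Untreated cells held PTGS2 at 2.27, 1.98 and 1.63 TPM at 0 h, 0.707, 1.04 and 0.837 at 8 h, 1.96, 2.27 and 2.20 at 24 h and 7.63, 8.31 and 8.15 at 48 h. PTGS2 in the TGFβ arm was at 1.51, 2.10 and 1.78 TPM at 0 h, 0.719, 0.807 and 0.864 at 8 h, 1.27, 1.54 and 1.38 at 24 h and 1.41, 1.46 and 1.73 at 48 h. PTGS2, the inducible cyclooxygenase that makes prostaglandins, overlapped between the arms at 0 and 8 h and lay lower with TGFβ1 at 24 and 48 h. For PTGS2 the log2 difference was -0.60 ± 0.12 (adjusted p = 3.76e-04) at 24 h and -2.44 ± 0.11 (adjusted p = 1.22e-13) at 48 h, 5.43-fold lower, and at 8 h it was 0.00 (95% interval -0.31 to 0.32).

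Of the 4 NF-κB subunit genes RELA, NFKB1, NFKB2 and RELB, NFKB2 passed at 48 h, and when the 4 reference genes set the scale RELA and NFKB1 were higher there, by 0.42 and 0.25. With this scale NFKB1, RELA and NFKB2 also passed as higher at 24 h, by 0.35, 0.32 and 0.27. Untreated cells held RELA at 46.7, 43.8 and 43.8 TPM at 0 h, 49.2, 53.0 and 50.8 at 8 h, 59.4, 55.6 and 57.5 at 24 h and 63.6, 62.6 and 61.6 at 48 h. RELA in the TGFβ arm was at 43.0, 40.3 and 46.7 TPM at 0 h, 60.9, 57.5 and 55.05 at 8 h, 57.4, 49.6 and 54.98 at 24 h and 68.8, 62.9 and 60.2 at 48 h. RELA, the activating subunit of the classical dimer, overlapped between the arms at 0, 24 and 48 h and lay above in the TGFβ arm at 8 h. The log2 difference of RELA was 0.25 ± 0.07 at 8 h (adjusted p = 0.0133) and 0.07 at 48 h (95% interval -0.08 to 0.22), and RELA did not pass the F-test (adjusted p = 0.0300). The 8 h difference passed with the replicate number as a block (adjusted p = 0.00644), although the numbers did not pair the libraries at 8 h. Without a block it passed in DESeq2 (0.25, adjusted p = 0.00566) and in limma voom with the 4 reference genes (0.34, adjusted p = 4.45e-05). It did not pass in edgeR, with length-scaled counts or with library totals.

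Untreated cells held NFKB1 at 14.5, 13.8 and 14.1 TPM at 0 h, 15.9, 16.6 and 18.1 at 8 h, 15.3, 14.9 and 14.7 at 24 h and 15.7, 16.1 and 16.4 at 48 h. NFKB1 in the TGFβ arm was at 12.0, 13.9 and 14.03 TPM at 0 h, 19.97, 19.4 and 17.9 at 8 h, 14.4, 14.3 and 14.04 at 24 h and 14.6, 14.2 and 14.9 at 48 h. NFKB1, which encodes the p105 precursor of the p50 subunit, overlapped between the arms at 0 and 8 h, and at 24 and 48 h the TGFβ libraries lay slightly below. The log2 difference of NFKB1 was 0.19 ± 0.04 (adjusted p = 0.00260) at 8 h, 0.00 at 24 h (95% interval -0.10 to 0.09) and -0.10 at 48 h (-0.20 to -0.01). The 8 h call of NFKB1 was lost with 4 of 24 libraries left out in turn (replicates 1 and 2 of both arms at 8 h), of which untreated 8 h replicate 1 gave the highest adjusted p of 0.0196 (0.17), and with library totals (adjusted p = 0.0814). NFKB2, the precursor of p52, ranged from 28.6 to 55 TPM and was lower at 48 h, by a log2 difference of -0.52 ± 0.08 (adjusted p = 1.20e-05). RELB, the partner of p52, ranged from 1.39 to 7.16 TPM with -0.36 at 48 h (95% interval -0.96 to 0.24).

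The NF-κB regulator genes NFKBIA, NFKBIZ and TNFAIP3 were lower in the TGFβ arm at 48 h. Untreated cells held NFKBIA at 38.2, 38.1 and 40.3 TPM at 0 h, 59.1, 56.2 and 55.1 at 8 h, 60.4, 60.6 and 62.9 at 24 h and 141, 144 and 141 at 48 h. NFKBIA in the TGFβ arm was at 39.3, 35.8 and 38.0 TPM at 0 h, 41.7, 37.3 and 39.3 at 8 h, 39.1, 33.2 and 36.2 at 24 h and 83.7, 76.2 and 73.1 at 48 h. The arms of NFKBIA overlapped at 0 h and were apart at 8, 24 and 48 h. For NFKBIA, which encodes IκBα, the log2 differences were -0.46 ± 0.06 (adjusted p = 1.11e-05), -0.71 ± 0.06 (adjusted p = 1.18e-08) and -0.85 ± 0.06 (adjusted p = 1.59e-10), the last 1.80-fold lower.

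Untreated cells held NFKBIZ at 2.36, 2.57 and 2.44 TPM at 0 h, 3.04, 2.47 and 2.03 at 8 h, 5.18, 5.46 and 5.87 at 24 h and 15.8, 16.1 and 15.9 at 48 h. NFKBIZ in the TGFβ arm was at 1.97, 2.34 and 2.38 TPM at 0 h, 2.20, 2.07 and 2.48 at 8 h, 1.83, 2.31 and 1.74 at 24 h and 5.53, 5.26 and 5.63 at 48 h. NFKBIZ, a nuclear IκB protein that co-activates a subset of NF-κB targets, overlapped at 0 and 8 h and was lower in each TGFβ library at 24 and 48 h. The NFKBIZ log2 difference was -1.35 ± 0.09 (adjusted p = 1.72e-10) at 24 h and -1.52 ± 0.07 (adjusted p = 2.73e-13) at 48 h, 2.88-fold lower. TNFAIP3, which encodes the deubiquitinase A20, ranged from 5.93 to 20.2 TPM, with 19.8 ± 0.531 TPM (SD, n = 3) in untreated cells and 14.7 ± 0.816 in the TGFβ arm at 48 h, a log2 difference of -0.57 ± 0.09 (adjusted p = 2.46e-05).

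Untreated cells held BIRC3 at 5.06, 6.51 and 5.50 TPM at 0 h, 11.9, 11.2 and 11.4 at 8 h, 7.48, 8.84 and 8.19 at 24 h and 17.1, 18.0 and 17.4 at 48 h. BIRC3 in the TGFβ arm was at 4.97, 6.83 and 5.82 TPM at 0 h, 9.30, 9.10 and 9.46 at 8 h, 2.91, 4.21 and 3.58 at 24 h and 4.87, 4.33 and 4.09 at 48 h. BIRC3, a ubiquitin ligase of TNF receptor complexes that guards against cell death, overlapped at 0 h and was lower in each TGFβ library from 8 h on. In BIRC3 the log2 difference was -0.27 ± 0.08 at 8 h (adjusted p = 0.0172), -1.16 ± 0.10 (adjusted p = 2.64e-09) at 24 h and -1.96 ± 0.09 (adjusted p = 1.57e-13) at 48 h, 3.90-fold lower. The 8 h difference passed with the replicate block (adjusted p = 0.00623), the block within each time (7.85e-05) and library totals (0.00279).

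Untreated cells held TRAF1 at 14.96, 14.4 and 15.1 TPM at 0 h, 21.1, 21.2 and 21.6 at 8 h, 14.3, 13.1 and 15.5 at 24 h and 35.5, 35.6 and 34.0 at 48 h. TRAF1 in the TGFβ arm was at 13.7, 13.7 and 14.9 TPM at 0 h, 31.3, 28.1 and 26.7 at 8 h, 11.7, 11.5 and 12.5 at 24 h and 12.7, 12.4 and 12.7 at 48 h. TRAF1, an adaptor of TNF receptors, was the 1 member that passed in both directions, since each TGFβ library lay above the untreated ones at 8 h and below them at 24 and 48 h. Its log2 differences were 0.42 ± 0.06 (adjusted p = 8.38e-06), -0.27 ± 0.06 (adjusted p = 0.00144) and -1.33 ± 0.06 (adjusted p = 1.09e-13), the last 2.51-fold lower. The 24 h call was lost without untreated 24 h replicate 3 (-0.21, adjusted p = 0.0149), and the 24 h difference was 0.08, of the opposite sign, when the 4 reference genes set the scale.

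**Figure D3:**
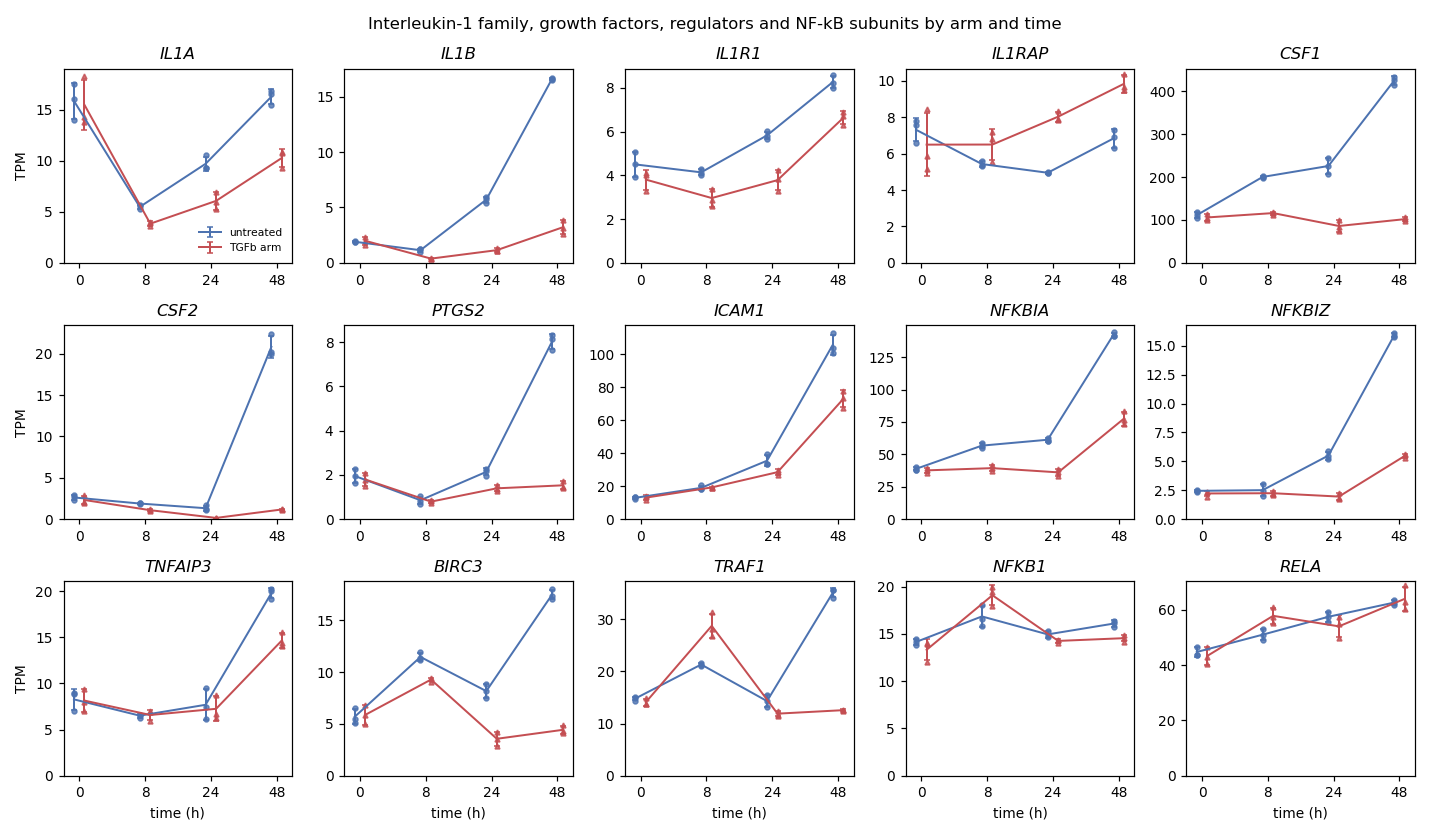
TPM of 15 further members at 0, 8, 24 and 48 h: the interleukin-1 ligands and receptors, CSF1, CSF2, PTGS2 and ICAM1, the NF-κB regulators, and the subunits NFKB1 and RELA. Circles are untreated libraries and triangles libraries of the TGFβ arm, with means joined by lines and the SD as bars (n = 3), and times are evenly spaced. CSF1 and BIRC3 separate early and widen, IL1RAP is higher with TGFβ1 at 24 and 48 h, and RELA overlaps at 48 h.

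ICAM1, the adhesion molecule that leukocyte integrins bind, stood at 13.01 ± 0.739 TPM (SD, n = 3) at 0 h and 106 ± 6.19 at 48 h in untreated cells. In the TGFβ arm it stood at 13.1 ± 1.45 and 73.0 ± 5.19. The change from 0 to 48 h crosses codes and was not tested. The log2 difference of ICAM1 between the arms at 48 h was -0.51 ± 0.07 (adjusted p = 5.27e-06). That of -0.25 at 24 h (adjusted p = 0.0128) passed with the replicate number as a block within each time (adjusted p = 7.09e-04). TNFAIP2, a cytokine-induced membrane protein, ranged from 51.3 to 201 TPM with log2 differences of -0.49 ± 0.09 (adjusted p = 1.49e-04) and -0.74 ± 0.08 (adjusted p = 3.42e-07) at 24 and 48 h. LTB, the membrane anchor of lymphotoxin, was listed at 0 in several libraries and reached 0.645, 0.899 and 0.467 TPM in untreated cells and 0.248, 0.351 and 0.197 in the TGFβ arm at 48 h. For 2 LTB transcripts, 7 transcripts each that matched no gene carried the same counts within 0.1% in the 24 libraries, so the level of LTB is understated and no fold is given. TNF, the namesake cytokine, did not exceed 0.0246 TPM in any library.

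The changes between times within an arm lie within codes. In untreated cells from 0 to 8 h, 10 members rose and 9 fell (13.2% and 12.7% of all genes), and in the TGFβ arm 8 rose and 13 fell (17.5% and 16.3%). BIRC3, CCL2, ICAM1, NFKB1, NFKB2, TNFAIP2 and TRAF1 rose in both arms, while CXCL2, CXCL3, CXCL10, IL1A, IL1B, IL18, PTGS2 and TNFAIP3 fell in both. IL1A had the largest fall among the untreated values, -1.57 ± 0.10 on the log2 scale, and -2.01 ± 0.11 in the TGFβ arm.

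The difference between the arms at 8 h exceeded that at 0 h for 2 members, IL1RAP and TRAF1 (5.05% of all genes), and was more negative for 5, CXCL5, CXCL10, IL1B, CSF1 and NFKBIA (2.84%). The block within each time added BIRC3 at -0.30 (adjusted p = 0.00434) and TNFAIP2 at -0.25 (0.00194) to the latter. CSF1 rose by 0.81 ± 0.09 in untreated cells and changed by 0.12 ± 0.09 in the TGFβ arm, a difference of -0.69 ± 0.13 (adjusted p = 6.41e-04). NFKBIA rose by 0.50 ± 0.06 and changed by 0.04 ± 0.07, a difference of -0.46 ± 0.09 (adjusted p = 0.00130). For IL1B the changes were -0.69 ± 0.15 and -2.33 ± 0.21, a difference of -1.64 ± 0.26 (adjusted p = 9.45e-05). These differences lie within the early codes, so a constant offset between codes does not enter them.

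From 24 to 48 h the members that passed the test rose. In untreated cells 26 of 32 rose (14.7% of all genes rose and 13.6% fell), 19 of them at least 2-fold, and in the TGFβ arm 16 rose (12.4% and 13.4%), 8 of them at least 2-fold. These counts include LTB, which was near 0 TPM in several groups and is not interpreted, and its untreated call was lost in DESeq2 (adjusted p = 0.0152). Of all 17453 genes tested, 410 rose at least 2-fold in untreated cells and 288 in the TGFβ arm. The median log2 change was 1.11 in untreated cells and 0.66 in the TGFβ arm, beside 0 and -0.001 over all genes. None fell in either arm in limma voom, edgeR or DESeq2, with 1 member, IL18, lower at an unadjusted p below 0.05 in untreated cells and 0 in the TGFβ arm. IL18, IL33, IL36G, NFKB1, RELA and RELB did not pass in untreated cells. When the 4 reference genes set the scale, which lifted the median change of all genes by 0.397 in untreated cells and 0.396 in the TGFβ arm, 29 and 25 members rose, again without the shares of all genes beside them. The largest untreated changes with levels above 1 TPM were those of CXCL8 at 4.25 ± 0.15, CXCL1 at 4.23 ± 0.15 and CSF2 at 3.90 ± 0.14, with 2.84 ± 0.17, 2.50 ± 0.19 and 2.62 ± 0.31 in the TGFβ arm.

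The untreated change exceeded that of the TGFβ arm for 12 members, and for 0 the reverse held (5.61% and 3.5% of all genes). At an unadjusted p below 0.05, 1 member, IL1R1, had the larger change in the TGFβ arm. edgeR called 12 and 0, and DESeq2 13 and 1, the 1 again IL1R1 at 0.32 (adjusted p = 0.00556). The replicate block and the block within each time also called 13 and 1, IL1R1 at 0.32 (adjusted p = 0.00852) and 0.32 (0.00228), and the latter added TNFAIP2 and TNFAIP3 to the 12 and ended CXCL3. Without the second replicates of 0 and 24 h the count was 13. PTGS2 rose by 1.80 ± 0.10 in untreated cells and changed by -0.04 ± 0.13 in the TGFβ arm, a difference of -1.84 ± 0.16 (adjusted p = 1.05e-07). CXCL1 differed by -1.73 ± 0.24 (adjusted p = 3.56e-05), CXCL8 by -1.41 ± 0.23 (adjusted p = 2.02e-04), TRAF1 by -1.06 ± 0.09 (adjusted p = 3.62e-08) and CXCL5 by -1.07 ± 0.12 (adjusted p = 2.07e-06). By contrast IL1B rose by 1.48 ± 0.08 and 1.38 ± 0.15, with a difference of -0.11 (95% interval -0.46 to 0.25), and NFKBIZ by 1.501 ± 0.07 and 1.32 ± 0.10, with -0.18 (-0.42 to 0.07). For IL1B and NFKBIZ the gap between the arms was already present at 24 h.

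Of the 12, CXCL3 lost its call with 18 of 24 libraries left out in turn, NFKB2 with 17 of 24, CCL2 with 8 of 24 and CXCL10 with 7 of 24. For CXCL3 the call was also lost in DESeq2 (adjusted p = 0.0263), with length-scaled counts (0.0957), library totals (0.0111), the 4 reference genes (0.0195) and the block within each time (0.0226). With 1 library left out, the highest adjusted p of these 4 in limma voom was 0.0395, 0.0275, 0.0182 and 0.0261, and the values stayed between -0.86 and -0.65 for CXCL3 and between -1.85 and -1.49 for CXCL10.

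**Figure D4:**
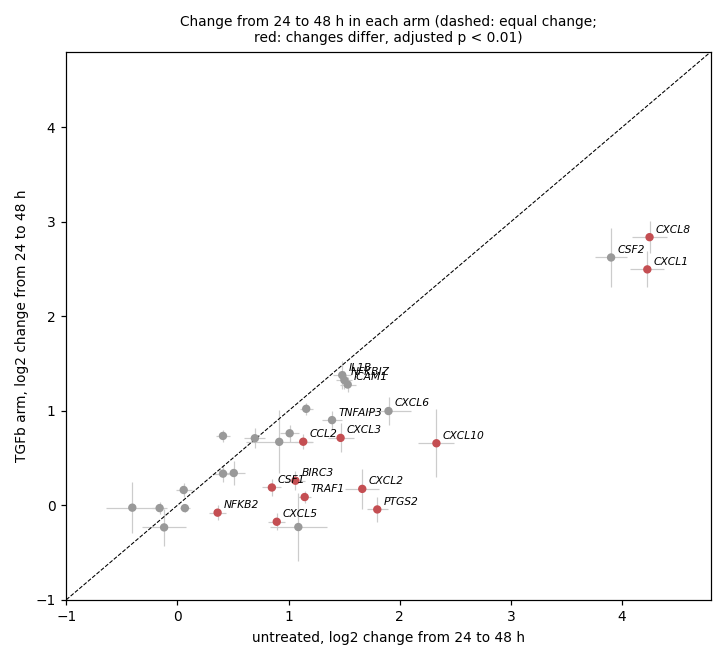
Log2 change from 24 to 48 h in untreated cells (horizontal axis) and in the TGFβ arm (vertical axis) with standard errors, for 31 members (LTB is left out). The dashed line marks an equal change, and red points are the 12 members whose changes differed between the arms at an adjusted p below 0.01. The red points lie below the line, and PTGS2 and CXCL5 changed by -0.04 and -0.17 in the TGFβ arm.

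Transcript forms could be followed for a few members, as kallisto's point estimates and without a test. In NFKBIZ, the transcript NFKBIZ-202 encodes 718 residues and NFKBIZ-203 encodes 618. In untreated cells NFKBIZ-202 went from 0.661 ± 0.204 TPM (SD, n = 3) at 0 h to 7.24 ± 1.297 at 48 h, and its share of the gene from 26.9% to 45.6%. NFKBIZ-203 went from 39.3% to 19.0%. In the TGFβ arm at 48 h NFKBIZ-202 stood at 1.99 ± 0.325 TPM and 36.4% of the gene. In TNFAIP2, TNFAIP2-201 (654 residues) held 18.4% and 19.9% at 48 h in the untreated and the TGFβ arm, and the shorter TNFAIP2-204 (242 residues) 21.1% and 20.4%.

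A wider list of 113 genes of the same pathways, of which 98 passed the filter, gives the setting. In the F-test 57 (58.2%) passed beside 42.5% of all genes, 23 higher and 34 lower on average in the TGFβ arm. At 8 h 16 (16.3%) were higher and 6 (6.12%) lower, beside 9.12% and 7.26% of all genes. At 24 h 17 (17.3%) were higher and 21 (21.4%) lower, beside 15.4% and 13.8%, and at 48 h 13 (13.3%) were higher and 32 (32.7%) lower, beside 16.1% and 16.4%. Its median log2 difference at 48 h was -0.111. From 24 to 48 h 36 (36.7%) rose and 3 (3.06%) fell in untreated cells, beside 14.7% and 13.6% of all genes, and 26 (26.5%) rose and 3 (3.06%) fell in the TGFβ arm, beside 12.4% and 13.4%. The difference in this change was negative for 20 genes (20.4%, beside 5.61%).

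The genes of the wider list with the largest average differences went both ways. ACKR3, a scavenger receptor of CXCL11 and CXCL12, stood at 25.5, 25.7 and 26.0 TPM in untreated cells and 91.8, 97.2 and 93.7 in the TGFβ arm at 8 h, with no overlap. Its log2 difference was 2.00 ± 0.05 (adjusted p = 1.08e-17) at 8 h and 2.43 ± 0.05 (adjusted p = 5.24e-19) at 48 h. GADD45B and TNFAIP8, both known as NF-κB-induced survival genes, were higher as well, by 1.69 ± 0.10 (adjusted p = 4.23e-12) and 1.36 ± 0.12 (adjusted p = 4.76e-09) at 48 h. TNFAIP6, a hyaluronan-binding protein, was higher by 3.28 ± 0.44 (adjusted p = 3.08e-06) at levels of 0.872 ± 0.0403 TPM (SD, n = 3) in the TGFβ arm and 0.0977 ± 0.0471 in untreated cells.

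Complement C3, the central complement component, stood at 13.7, 17.3 and 18.3 TPM at 24 h and 152, 159.8 and 142 at 48 h in untreated cells, and at 3.82, 4.15 and 4.54 and 16.9, 14.5 and 12.1 in the TGFβ arm. C3 had an untreated change of 3.36 ± 0.07 from 24 to 48 h against 1.80 ± 0.09 in the TGFβ arm and a difference of -1.56 ± 0.11 (adjusted p = 5.83e-09). CXCL11, a relative of CXCL10 that binds the same receptor, had a log2 difference of -3.22 ± 0.23 (adjusted p = 2.34e-10) at 48 h. CX3CL1, the membrane-bound fractalkine, differed by -2.53 ± 0.17 (adjusted p = 9.22e-11). CFB, complement factor B, differed by -1.65 ± 0.17 (adjusted p = 7.54e-08), although some of its transcripts share their counts with transcripts that matched no gene, so its level is less certain.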

How the data were processed

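Total RNA from 24 SK-MES1 cultures (2 arms, 4 times, 3 replicates) was sequenced. The authors quantified each library with kallisto 0.43.0 against human transcripts and deposited, per transcript, estimated counts, TPM and an effective length, with no adjustment between libraries. Each table held 173259 transcripts, of which 155518 (89.76%) matched GENCODE release 44 and were summed to genes, keeping 94.8 to 95.2% of the counts. The deposited estimated counts, 46613589 to 77964234 per library, were summed, rounded to whole numbers and put into limma 3.58.1 voom with TMM factors (edgeR 4.0.16, R 4.3.3), 1 mean per group, after removing genes without 10 estimated counts in 3 libraries (17453 genes stayed). Two-sided contrasts and an F-test over 8, 24 and 48 h were adjusted over all genes, with a threshold of 0.01.

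Alternatives were edgeR quasi-likelihood, DESeq2 1.42.0, limma-trend on log2(TPM + 1) or log2(TPM + 0.1), counts length-scaled with the deposited effective lengths, library totals, upper-quartile factors, 4 reference genes (not named here) as library size, 2 other filters, a threshold of 0.05, only the libraries of the times compared, the replicate number as a block, and each library left out in turn. A block within each time point (for differences between the arms), and leaving out the second replicates of 0 and 24 h, were chosen after seeing the data. Deviations of same-numbered libraries of the 2 arms correlated by 0.458, 0.644 and 0.199 at 0 h and by 0.390, 0.661 and 0.347 at 24 h, but by -0.075 to 0.095 at 8 h and 0.007 to 0.135 at 48 h, so the numbers were taken to pair libraries at 0 and 24 h.

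The members and lists were chosen with earlier results of these data known. Values in every library were given for members past the threshold in the F-test with a 2-fold difference at 8, 24 or 48 h, at most 14 by p, and for IL1A, IL1B, CXCL8, NFKB1, RELA and NFKBIA in any case. From the wider list at most 8 genes with the largest average difference were named. Replicates are separate libraries of one line, and where cultures were not separate, p-values measure technical spread. Scripts were tested on simulated data. Promoter windows were taken from RefSeq (GRCh38.p14). Plots were drawn with matplotlib 3.10.9 and tables made with pandas 2.3.3 (Python 3.11.15).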

Additional observations from a re-analysis of the deposited data

Results flagged for a closer look

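The difference between the arms at 8 h departed from that at 0 h, by the test of this difference in limma voom, for 7 members. It was -0.81 for CXCL5, -1.92 for CXCL10, -1.64 for IL1B, -0.46 for NFKBIA and -0.69 for CSF1 on the log2 scale, and 0.81 for IL1RAP and 0.49 for TRAF1. The CXCL10 value lost its call with 4 of 24 libraries left out in turn, untreated 8 h replicate 3, TGFβ 0 h replicate 1 and TGFβ 8 h replicates 1 and 2 (highest adjusted p = 0.0270), and the IL1RAP value was 0.47 with length-scaled counts (adjusted p = 0.0910).

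The difference at 48 h departed from that at 24 h by the same test for 12 members. Among the chemokines it was -1.73 for CXCL1, -1.49 for CXCL2, -0.75 for CXCL3, -1.07 for CXCL5, -1.41 for CXCL8, -1.67 for CXCL10 and -0.46 for CCL2. Among the other members it was -1.84 for PTGS2, -1.06 for TRAF1, -0.80 for BIRC3, -0.66 for CSF1 and -0.44 for NFKB2. Groups of 3 libraries were not tested for outlying libraries.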

How the results depend on the processing

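Calls were followed singly for the differences between the arms at 8, 24 and 48 h and for the early and late differences of changes. They were also followed for the changes from 24 to 48 h, whereas those from 0 to 8 h were followed as counts only. Of the 116 called member differences followed singly, 100 kept their call with each library left out in turn and 16 lost it with at least 1. Besides those given with their genes, CCL20 and IL1RAP in untreated cells and CXCL3 and IL1RAP in the TGFβ arm lost their rise from 24 to 48 h. For CCL20 this was untreated 24 h replicate 1 (0.98, adjusted p = 0.0145) and for CXCL3 it was TGFβ 24 h replicate 3 (0.61, 0.0107). IL1RAP lost it in untreated cells without 24 h replicate 1 or 2 or 48 h replicate 3, and in the TGFβ arm without 24 h replicate 1 or 3 or any 48 h replicate. Counts of called members then ranged from 26 to 28 in the F-test, 8 to 15 at 8 h, 15 to 18 at 24 h, 25 to 26 at 48 h, 6 to 8 and 8 to 13 for the early and late difference of changes, 16 to 20 and 18 to 21 from 0 to 8 h and 24 to 26 and 14 to 16 from 24 to 48 h in the untreated and TGFβ arms. Low counts limit CSF2, CXCL10, CCL20, IL36G and LTB.

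A threshold of 0.05 called 19 members at 8 h, and the 4 reference genes 25 for the TGFβ change from 24 to 48 h. With the replicate block 14, 17 and 26 members passed at the 3 later times, and with a block within each time point 15, 18 and 26. This block ended the calls of IL36G at 8 h, CXCL3 at 24 h and CXCL3 for the late difference of changes, and added CXCL16, TNFAIP2, RELA and BIRC3 at 8 h, CCL2 and ICAM1 at 24 h, BIRC3 and TNFAIP2 for the early and IL1R1, TNFAIP2 and TNFAIP3 for the late difference of changes. It ended or added no other call of a difference between the arms, and it was not applied to changes within an arm, since it lies within a time. With 4 reference genes the early difference of changes was positive for 4 and negative for 5.

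The cause of the sign changes that follow was not tested, and 52 of these 54 values belong to differences that had not passed. Some passed with the new sign in limma voom when the 4 reference genes set the scale. At 24 h these were NFKB1 (adjusted p = 2.60e-05), RELA (3.50e-05) and NFKB2 (3.41e-04). The others were NFKB1 at 48 h (8.45e-04) and the TGFβ change of NFKB2 from 24 to 48 h (7.10e-05). With the 4 reference genes, IL18 at 8 h was 0.0867, CXCL8 0.16, CCL2 0.0931, TNFAIP3 0.27, NFKB1 0.35, NFKB2 0.27, RELA 0.32, RELB 0.24, ICAM1 0.0971 and TRAF1 0.0782 at 24 h, IL1R1 0.0725, IL36G 0.21 and NFKB1 0.25 at 48 h, and CXCL5 0.22, NFKB2 0.32 and PTGS2 0.35 for the TGFβ change from 24 to 48 h. Library totals gave TNFAIP3 -0.00716, NFKB2 -0.0165, ICAM1 -0.0131 and PTGS2 -0.0815 at 8 h and RELA -0.0124 at 48 h. PTGS2 at 8 h, near 0, was -0.00187 in edgeR, -0.00424 in DESeq2, -0.0473 and -0.0881 on log2(TPM + 1) and log2(TPM + 0.1), -0.0254 with length-scaled counts, -0.0385 with upper-quartile factors, -0.000812 with a filter of 1 estimated count, and -0.00106 and -0.00398 with the blocks. NFKB1 at 24 h was 0.000427 in DESeq2 and 0.0113 with the 24 h libraries alone, and RELB at 24 h 0.29 without the second replicates. For the TGFβ change from 24 to 48 h, NFKB2 was 0.0496 and 0.0509 on the TPM scales, and PTGS2 0.0782 and 0.12, 0.0737 with length-scaled counts and 0.0435 without the second replicates. With 1 library (or the second replicates) left out, values on both sides of 0 ranged from -0.0371 to 0.0179 for IL18, -0.22 to 0.02 for IL33 and -0.0796 to 0.0627 for PTGS2 at 8 h, from -0.0135 to 0.0113 for NFKB1, -0.0919 to 0.0392 for RELA, -0.41 to 0.29 for RELB and -1.66 to 0.0632 for LTB at 24 h, and from -0.12 to 0.0435 for PTGS2 from 24 to 48 h.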
